A study of Mus musculus with 41 samples.

Results

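The gene set described here is Trp53, which encodes the tumor suppressor p53, with genes known as p53 targets, 34 in all, read from a table of 47480 gene symbols measured by RNA sequencing in 41 mouse mammary tumors that lack p53. Members were found in the table by gene symbol. All 34 genes were found in the table and passed the filter of a mean of at least 10 units used for testing.

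Of the tumors, all of the Balb/c strain, 28 were Plk2-/-; p53-/- and 13 were p53-/-, and they grew without treatment after orthotopic injection into syngeneic animals. Ages are not given in the sources used here. The Plk2-/-; p53-/- (double-null) tumors arose from mammary epithelial cells of mice of that genotype, bred from backcrossed Plk2-/- mice, after transplantation into wild-type Balb/c animals whose fat pads had been cleared. Both genotypes lack p53, and no tumor with intact p53 was analysed here, so the values have no p53-positive level to be set against. Those hosts carry intact Trp53, and stromal, vascular and blood cells of the host are part of a bulk tumor sample. Within the double-null tumors, 3 claudin-low tumors (PLK2null-732, PLK2null-743 and PLK2null-733) were compared with the other 25. Claudin-low is a subtype of low cell adhesion gene expression. The study assigned its classes by clustering the expression of these same tumors, so p-values for it are not independent evidence. The single p53-/- tumor entered as claudin-low was p53null-T11. Each tumor is 1 library, and 7 of the double-null tumors are named as primary tumors. The sources used here do not say which numbered tumors are passages of one another. The p-values treat every tumor as independent, and they are too small if some of the tumors are related.

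p53 is a transcription factor that is stabilized when DNA is damaged or cells are stressed, and it then switches on genes for cell cycle arrest, apoptosis, DNA repair and metabolic adaptation. Its protein is held in check by Mdm2 and Mdm4, and its relatives p63 and p73 can bind the same DNA element. Many of its targets also have other activators. Loss of p53 is frequent in triple-negative breast cancer. PLK2 is a kinase whose gene is itself known as a p53 target.

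The p53 response element is a decamer, the half-site, that usually occurs as a closely spaced pair. RefSeq promoter windows on GRCm38.p6, from 250 bases before to 50 bases after a transcription start, were at hand for 26 of the 34 genes. The consensus half-site, which reads the same on both strands, was found in the windows of 10 of those 26 (38.5%), beside 2582 of 27025 genes with a window (9.55%). A pair spaced by at most 13 bases was found in 1 of the 26, Cdkn1a, beside 20 of the 27025 (0.074%). The stretches below are those of the matched genes whose RNA differed in a comparison that follows. Capitals mark the half-sites, and each line runs 5′ to 3′ on the strand of the gene.
Cdkn1a, chr17:29090897-29090946, plus strand: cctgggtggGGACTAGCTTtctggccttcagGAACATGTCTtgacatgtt
Trp53, chr11:69580274-69580303, plus strand: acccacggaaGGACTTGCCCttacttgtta
Gadd45a, chr6:67037428-67037457, minus strand: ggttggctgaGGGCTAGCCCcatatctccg
Bax, chr7:45467080-45467109, minus strand: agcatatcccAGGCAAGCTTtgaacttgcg
Polk, chr13:96519399-96519428, minus strand: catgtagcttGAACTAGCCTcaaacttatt
Rps27l, chr9:66946193-66946222, plus strand: ctttgggctcGGGCTTGCTTtccttcaggc
Rps27l, chr9:66946296-66946325, plus strand: gggcttgttgAGACTTGTCCgggcgacacg
The other matched genes were Aen, Ei24, Sesn1 and Ccng1. A match is a string of letters in a window and no measurement of binding.

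Values are the upper-quartile-normalized gene counts of the authors, in which the upper quartile of the nonzero genes is 1000 units in every tumor. The most frequent value above 0 in a tumor, taken as the worth of 1 read, gave an implied depth of 31910250 to 53244728 fragments (median, 39053966) in the Plk2-/-; p53-/- tumors and 29409609 to 70868124 (median, 58042777) in the p53-/- tumors, and 3 reads were worth 1.16 to 2.45 units, which served as the detection floor and covers counting error only. All p53-/- libraries carry a series name in their titles that no double-null library carries, so genotype and library series cannot be told apart in any comparison of genotypes. Plk2 itself, the check of the labels, was 36.6 to 553 units in the double-null tumors and 186 to 8028 in the p53-/- tumors, and the lowest p53-/- value came from the library labelled p53null-7435. Per kilobase of the longest GENCODE transcript, averaged over the 41 tumors, the members ranged from 12.4 units for Eda2r and 21.1 for Trp73 to 2372 for Ddit4 and 3411 for Rps27l.

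RNA of p53 pathway genes was compared first between the genotypes. In the Plk2-/-; p53-/- tumors, 6 of the 34 genes were higher (17.6%) and 6 were lower (17.6%) by limma with Benjamini-Hochberg adjustment over all 17208 genes tested. Over all genes tested, 24.3% were higher and 15.3% were lower, so the members were called about as often as genes in general. The median log2 fold change of the members was -0.02, and that of all genes was 0.10. The higher genes were Mdm4, Ddb2, Polk, Apaf1, Trp53 and Rrm2b. The lower genes were Trp73, Phlda3, Ak1, Triap1, Rps27l and Bax. With median-of-ratios scaling the median of all genes moved to -0.02, and the split became 4 higher and 10 lower members beside 3381 higher and 3490 lower genes overall. Quantile normalization gave 5 higher and 8 lower members beside 3488 and 3263 genes. The main split over all genes was 4175 higher and 2627 lower. With only the 7 named primary double-null tumors, Mdm4, Ddb2, Polk, Triap1 and Rps27l were still called, and the calls of Trp53, Trp73, Bax, Apaf1, Phlda3, Rrm2b and Ak1 were lost (adjusted p = 0.0874 to 0.453).

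Other cell content differed between the genotypes as well. The skeletal muscle list Acta1, Ckm and Myh4 had 3 of 3 genes lower in the double-null tumors, where it summed to 2.24 to 2363 units (median, 7.01) against 3.68 to 32607 (median, 36.6) in the p53-/- tumors. Of the adipocyte list 1 of 3 tested genes was lower, and the list summed to 0 to 2795 units (median, 49.7) against 8.37 to 1204 (median, 220.3). Of the proliferation list 1 of 5 genes was higher, Mki67, by 0.95 ± 0.19 (SE; adjusted p = 0.000116 by limma) on the log2 scale. That list summed to a median of 23871 units against 15483. Csf3r of 3 neutrophil genes and Cd68 of 6 macrophage genes were higher as well. Of the basal epithelium list 2 of 3 genes were lower. No gene of the epithelial, endothelial, fibroblast, T cell, B cell or red blood cell lists was called. The part of cell content or proliferation in the differences that follow was not tested.

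Trp53 RNA was measured above the floor in all 41 tumors. The table sums every transcript of a gene, and which exons the null allele lacks is not given in the sources used here, so the value does not check the p53 label. The Plk2-/-; p53-/- tumors ranged from 1563 to 3914 units (median, 2597), and the p53-/- tumors from 349 to 5035 (median, 1818). The double-null range thus lay inside that of the p53-/- tumors. The log2 fold change was 0.64 ± 0.23 (SE; adjusted p = 0.0215 by limma). The lowest values, 349 in p53null-10151 and 352 in p53null-5329, stood apart from the next p53-/- tumor at 1433. Without either of them the difference no longer passed the threshold, at 0.46 (adjusted p = 0.0665) without p53null-10151 and 0.46 (adjusted p = 0.0656) without p53null-5329. The call was also lost with median-of-ratios scaling, at 0.53 (adjusted p = 0.0702), and with the 7 named primary tumors, at 0.52 (adjusted p = 0.453). The library labelled p53null-7435 had the highest value, and without it the difference was 0.78 (adjusted p = 0.00393).

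Trp73 encodes p73, the p53 relative that can act on many of the same genes. Its RNA was at or below the floor in 17 of the 28 double-null tumors, 13 of them at 0, and in 2 of the 13 p53-/- tumors. The double-null tumors had a median of 0.582 units and a highest value of 692, in PLK2null-7748. The p53-/- tumors had a median of 98.0 and ranged from 0 in p53null-T11 to 1026 in p53null-5317. On the log2(value + 1) scale the difference was -3.73 ± 0.97 (SE; adjusted p = 0.00207), with overlapping ranges, and with the 7 named primary tumors it no longer passed, at -2.72 (adjusted p = 0.233). Trp63, the other relative, had a median of 95.0 units in the double-null tumors and 2179 in the p53-/- tumors, with a log2 fold change of -2.45 ± 1.04 (SE) that did not pass (adjusted p = 0.057). Trp63 is also a marker of basal epithelium. Krt5 and Krt14 with Trp63, the list of that cell type, summed to 11.9 to 47140 units (median, 3425) in the double-null tumors and 52.3 to 132918 (median, 22942) in the p53-/- tumors, with 0 of 3 genes higher and 2 of 3 lower by limma. The part of basal cell content in the Trp73 difference was not tested, and in bulk tumors fewer cells of a type and less RNA per cell cannot be told apart.

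**Figure D1:**
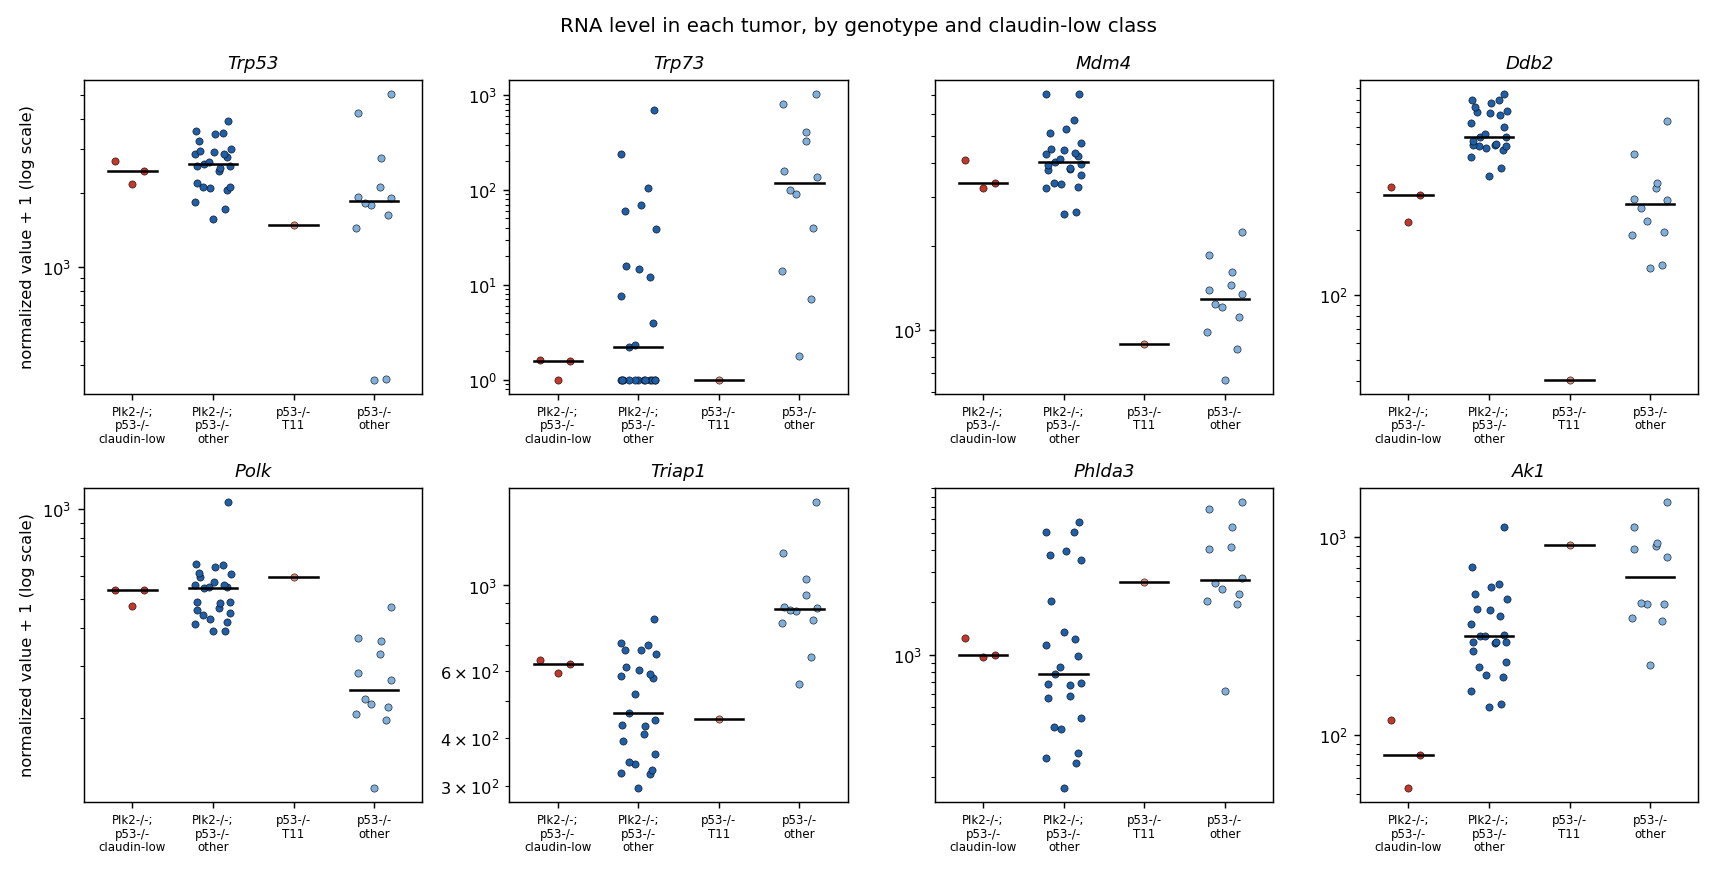
Normalized value + 1 on a log scale for 8 genes in each of 41 tumors, with 1 point per tumor and a bar at the median of each group. Mdm4 separates the genotypes without overlap (2606 to 7065 against 662 to 2260 units), whereas the other genes overlap, and 2 low p53-/- points set Trp53 apart.

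Mdm4 encodes the p53-binding protein that blocks p53 activity. Its values were 2606 to 7065 units (median, 3999) in the double-null tumors and 662 to 2260 (median, 1234) in the p53-/- tumors. No double-null tumor was as low as the highest p53-/- tumor. The log2 fold change was 1.72 ± 0.14 (SE; adjusted p = 1.57e-13), or 3.29-fold. Mdm4 was the only member with separate ranges in this comparison, while 1.12% of all genes tested had ranges that were separate and higher and 0.227% had ranges that were separate and lower. Mdm4 lies on chromosome 1 from 132959484 to 133030561 on the minus strand of GRCm38, and Btg2 and Phlda3 are other members within a few megabases of it.

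Among the genes for DNA repair and nucleotide supply, 3 of 5 were higher and 1 was lower, beside 24.3% and 15.3% of all genes tested. The same shares stand beside the genotype counts of the other roles below, each of which is a short list. Ddb2, which recognizes ultraviolet damage for nucleotide excision repair, was 216 to 848 units (median, 525) in the double-null tumors and 39.7 to 633 (median, 250) in the p53-/- tumors. Its log2 fold change was 1.24 ± 0.22 (SE; adjusted p = 1.83e-05). In the annotation 26.7% of its exon bases are shared with Acp2 on the opposite strand, and since the kit is not described as keeping strand, reads of the genes cannot be told apart there. Acp2 was also higher, by 0.65 ± 0.10 (SE; adjusted p = 2.06e-06). Polk, a polymerase that copies past DNA lesions, was 390 to 1055 units (median, 536) in the double-null tumors and 116 to 594 (median, 267) in the p53-/- tumors. Its ranges overlapped, and its log2 fold change was 0.93 ± 0.14 (SE; adjusted p = 1.21e-06). Polk lies on chromosome 13, as Plk2 does, with 13.9 Mb between the genes. Rps27l, a ribosomal protein paralog induced by p53, was 900.0 to 4063 units (median, 1641) in the double-null tumors and 1716 to 3591 (median, 2158) in the p53-/- tumors, a log2 fold change of -0.63 ± 0.17 (SE; adjusted p = 0.0023). Rrm2b, a subunit of the ribonucleotide reductase that p53 induces, was 537 ± 133 units (SD, n = 28) and 430 ± 119 (SD, n = 13) and passed narrowly (adjusted p = 0.0472), a call that was lost in 20 of 41 fits with 1 tumor left out. Xpc, the damage sensor of the same repair route as Ddb2, was 877 ± 200 (SD, n = 28) and 793 ± 250 (SD, n = 13) and was not called.

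Of the 13 apoptosis genes, Apaf1 was higher and Phlda3, Triap1 and Bax were lower. Apaf1, the scaffold of the apoptosome, was 353 to 2615 units (median, 656) in the double-null tumors and 240 to 984 (median, 399) in the p53-/- tumors, with a log2 fold change of 0.69 ± 0.24 (SE; adjusted p = 0.0177). Its highest value was that of the claudin-low tumor PLK2null-743. Phlda3, which opposes Akt signaling, was 172 to 5762 units (median, 912) in the double-null tumors and 619 to 7497 (median, 2619) in the p53-/- tumors, a log2 fold change of -1.59 ± 0.43 (SE; adjusted p = 0.0027). The highest double-null value, in PLK2null-1971, lay within the p53-/- range. It was followed by PLK2null-7763, PLK2null-1963, PLK2null-7747, PLK2null-1964 and PLK2null-1965, down to 3474 units. The basal marker Trp63 was 2447 to 7601 units in these tumors. PLK2null-7748 had 3654 units of Trp63 but 1352 of Phlda3. The part of basal cell content in the Phlda3 difference was not tested. Triap1, an inhibitor of apoptosome formation, was 296 to 816 units (median, 547) against 448 to 1646 (median, 862), a log2 fold change of -0.77 ± 0.15 (SE; adjusted p = 6.47e-05). Bax, which permeabilizes mitochondria, was 1236 ± 275 units (SD, n = 28) and 1571 ± 328 (SD, n = 13) and was the smallest of the called decreases (adjusted p = 0.00974). In the annotation 22.1% of Bax exon bases are shared with Gm45808 on the same strand, a gene without values here.

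The other apoptosis genes did not pass. Perp, a desmosomal protein and apoptosis effector, was 2962 ± 3318 units (SD, n = 28) against 7269 ± 7095 (SD, n = 13), with p53null-10151 at 26716 (adjusted p = 0.0734), and it passed without p53null-T11 (adjusted p = 0.0213). Fas, the death receptor, was 139 ± 82.0 against 227 ± 161 (adjusted p = 0.0502) and passed in 17 of 41 fits with 1 tumor left out. The BH3-only genes Bbc3 and Pmaip1, which encode Puma and Noxa, were 330 ± 95.0 and 346 ± 248 units in the double-null tumors against 350 ± 176 and 294 ± 426 in the p53-/- tumors. The receptor genes Tnfrsf10b and Eda2r were 583 ± 308 and 55.6 ± 74.3 against 546 ± 325 and 66.7 ± 84.7. Aen, Ei24 and Trp53inp1 were 1001 ± 305, 2206 ± 411 and 1084 ± 538 units against 1044 ± 320, 2425 ± 712 and 908 ± 536 (SD, n = 28 and n = 13 throughout).

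None of the 5 cell cycle arrest genes was called between genotypes by limma, and 0 of the 5 had an unadjusted p below 0.05. With median-of-ratios scaling Ccng1 was called lower. Cdkn1a, the p21 inhibitor of cyclin-dependent kinases and the textbook p53 target, was 941 ± 597 units (SD, n = 28) against 2010 ± 2342 (SD, n = 13), with the p53-/- tumors ranging from 214 in p53null-2225L to 9051 in p53null-10151. The p53-/- tumors thus spanned the whole range of the double-null tumors and went beyond it on both sides. Ccng1, or cyclin G1, was 1362 ± 334 against 1824 ± 1081 units. The antiproliferative gene Btg2 was 1267 ± 1323 against 1012 ± 439. Gadd45a, a stress-induced growth arrest gene, was 769 ± 456 against 622 ± 396, and Zmat3, a zinc finger RNA-binding protein, was 800 ± 276 against 788 ± 357.

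Of the 8 metabolism and stress genes only Ak1 was called. Ak1, an adenylate kinase, was 52.7 to 1130 units (median, 294) in the double-null tumors and 224 to 1505 (median, 793) in the p53-/- tumors, a log2 fold change of -1.19 ± 0.30 (SE; adjusted p = 0.00144). The sestrins Sesn1 and Sesn2, which restrain mTORC1, were 738 ± 635 and 478 ± 212 units against 1502 ± 1993 and 597 ± 164, with p53null-5317 at 6986 for Sesn1. Tigar, which diverts glucose to the pentose phosphate pathway, was 239 ± 65.8 against 316 ± 179. Ddit4, a further mTORC1 inhibitor, was 3493 ± 1294 against 5607 ± 5887. The secreted stress factor Gdf15 was 74.1 ± 105 against 62.2 ± 52.0, the autophagy gene Dram1 was 658 ± 359 against 573 ± 546, and the ferrireductase Steap3 was 1294 ± 1283 against 1027 ± 751 (SD, n = 28 and n = 13 throughout).

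**Figure D2:**
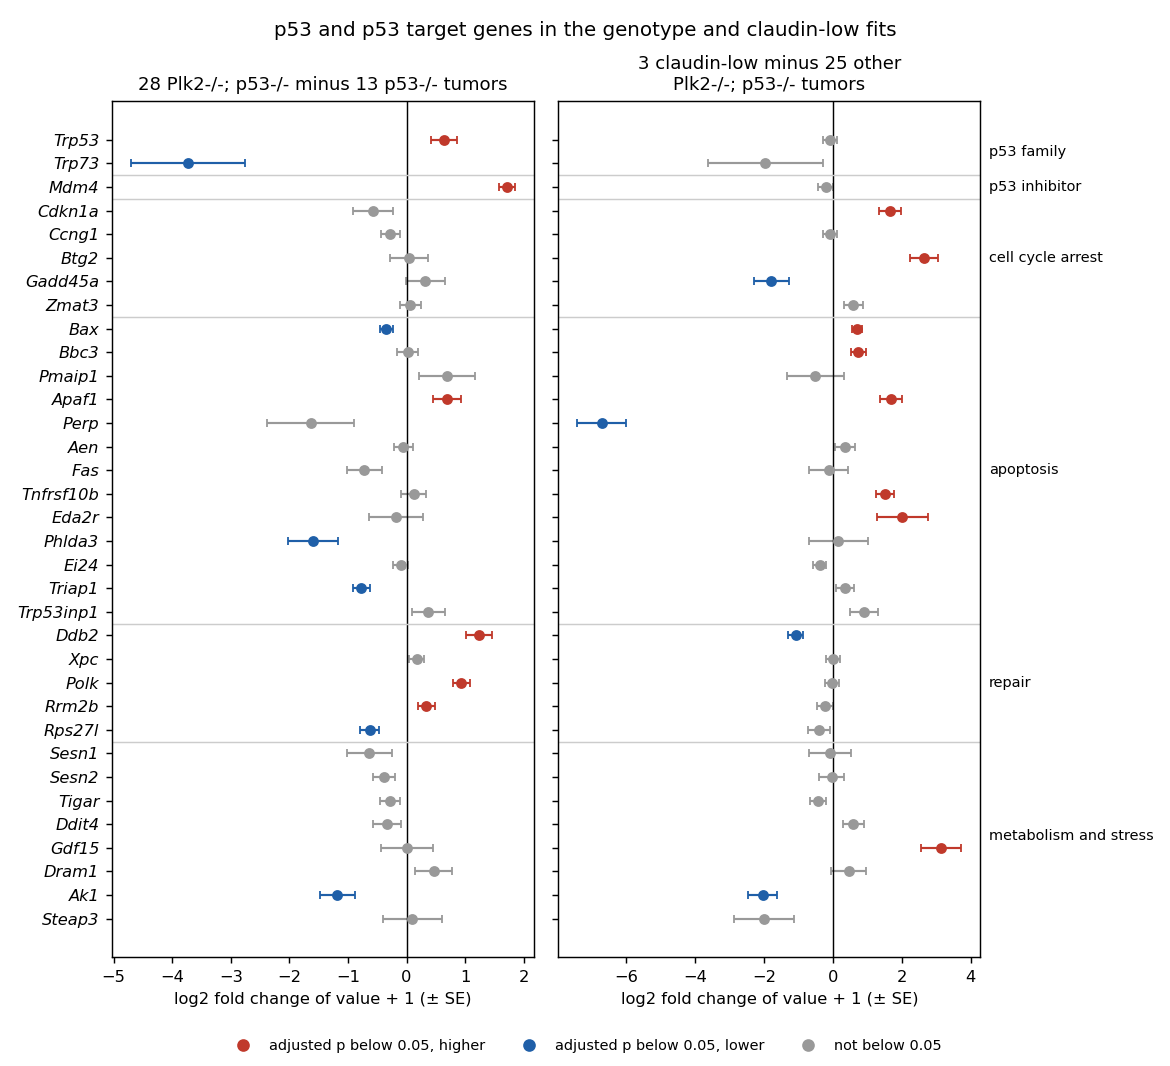
Log2 fold change of value + 1 with its SE for the 34 genes, ordered by role, between the genotypes (left) and between claudin-low and other Plk2-/-; p53-/- tumors (right). Colored points passed the adjusted p threshold, 6 higher and 6 lower on the left and 8 higher and 4 lower on the right, and Perp at -6.72 is the farthest point.

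The upstream regulators of p53 were read as a further list, of which 14 of 15 genes were in the table. In the double-null tumors 8 of the 14 were higher (57.1%) and 0 were lower, beside 24.3% and 15.3% of all genes tested. The median log2 fold change was 0.47, beside 0.10 for all genes. With median-of-ratios scaling the counts were 6 higher and 2 lower, and with quantile normalization 7 and 2. With only the 7 named primary double-null tumors, 4 were higher and 0 lower. Atm, the kinase that signals DNA breaks, was higher by 1.19 ± 0.21 (SE; adjusted p = 1.94e-05) on the log2 scale. Trp53bp1, which binds damaged chromatin, was higher by 0.90 ± 0.13 (SE; adjusted p = 8.38e-07). Mdm2, the ubiquitin ligase of p53 and a p53 target, had a log2 fold change of 0.39 ± 0.43 (SE; adjusted p = 0.499). Its values were uneven within each genotype. It was 13406 to 19585 units in PLK2null-7747, PLK2null-1963, PLK2null-1964 and PLK2null-1965, and 1052 to 2469 in the other double-null tumors. In p53null-2224L it was 32230 units, against 808 to 5651 in the other p53-/- tumors. Of 15 other p53 targets outside the set, 3 were higher (20%) and 4 lower (26.7%), beside the same 24.3% and 15.3% of all genes. Among the lower genes was Plk2, the gene deleted in the double-null tumors. Its call follows from the genotype and adds to the count of lower targets by design. Siva1, a proapoptotic gene, was lower by 1.53 on the log2 scale, at -1.53 ± 0.22 (SE; adjusted p = 2.87e-07), and Pidd1, a death domain gene, was higher by 1.01 ± 0.21 (SE; adjusted p = 0.000123). The integrated stress response, an activator of Sesn2, Ddit4 and Gdf15 that does not need p53, had 0 of 9 genes called by limma, with 4 at an unadjusted p below 0.05. With median-of-ratios scaling 0 of these 9 were higher and 4 were lower.

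Subtype within the double-null tumors was compared next. Of the 34 genes, 8 were higher in the claudin-low tumors (23.5%) and 4 were lower (11.8%), beside 20.2% and 17.1% of the 17153 genes tested. Ranges of the 3 claudin-low and the 25 other tumors were separate and higher for 6 members and separate and lower for 3, beside 11.1% and 8.87% of all genes. The higher genes were Gdf15, Btg2, Eda2r, Apaf1, Cdkn1a, Tnfrsf10b, Bbc3 and Bax. The lower genes were Perp, Ak1, Gadd45a and Ddb2. Trp53 was not called, at 2439 ± 257 units (SD, n = 3) against 2646 ± 605 (SD, n = 25), with a log2 fold change of -0.09 ± 0.21 (SE; adjusted p = 0.781). Trp73 was at or below the floor in all 3 claudin-low tumors, and Mdm4 was 3574 ± 466 (SD, n = 3) against 4248 ± 1121 (SD, n = 25).

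The cell content of these 3 tumors differed along with the genes. The epithelial list Epcam, Krt8, Krt18 and Cdh1 summed to 40.1 to 248 units in the claudin-low tumors and to 12794 to 109867 in the other 25, and 4 of 4 genes were lower, with none of them at 0. The endothelial list Pecam1, Cdh5, Kdr, Tie1, Esam and Emcn summed to 165585 to 186496 units against 2572 to 78025, and 6 of 6 genes were higher. The highest of the other 25 in endothelial genes was PLK2null-7763. It was also the highest of them for Btg2 (2460 units) and Bax (1501 units). It was not the highest for Gdf15, Eda2r, Apaf1, Cdkn1a, Tnfrsf10b or Bbc3. Leaving it out changed no member's call, but such a fit keeps the endothelial difference between the groups and does not test its part. The red blood cell list summed to 59904 to 233900 units against 433 to 14213, with 3 of 3 genes higher. All 6 T cell genes and all 4 B cell genes were higher too, whereas 3 of 6 fibroblast genes were lower, 1 of 6 macrophage genes was higher and 1 of 5 proliferation genes was lower. The part of vascular, blood or epithelial cell content in the results that follow was not tested.

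Perp showed the widest difference of the set. It was 68.0 units in PLK2null-732, 16.2 in PLK2null-733 and 7.91 in PLK2null-743, whereas the other 25 tumors ranged from 761 to 12716 (median, 1752). The log2 fold change was -6.72 ± 0.71 (SE; adjusted p = 1.6e-08). Perp is a component of desmosomes of epithelia as well as a p53 target, and in p53null-T11 it was 161 units, the lowest of the 13 p53-/- tumors, of which the next was at 1560.

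Of the arrest genes, Btg2 and Cdkn1a were higher and Gadd45a was lower. Btg2 was 5485 units in PLK2null-732, 4777 in PLK2null-733 and 4008 in PLK2null-743, against 326 to 2460 (median, 712) in the other 25. The log2 fold change was 2.64 ± 0.40 (SE; adjusted p = 6.24e-06). Cdkn1a was 2602 units in PLK2null-732, 1566 in PLK2null-733 and 2930 in PLK2null-743, against 382 to 1480 (median, 807). These 3 tumors were the highest of the 28, with a log2 fold change of 1.66 ± 0.32 (SE; adjusted p = 0.000154). Gadd45a was 176, 153 and 335 units in the same order, against 229 to 2137 (median, 841), so that 1 claudin-low tumor overlapped the others. The log2 fold change was -1.79 ± 0.50 (SE; adjusted p = 0.00531), and without PLK2null-733 it no longer passed, at -1.57 (adjusted p = 0.0547). Of its exon bases 19.5% are shared with E230016M11Rik on the opposite strand, a gene with a mean of 39.3 units.

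Of the 13 apoptosis genes, 5 were higher (38.5%) and Perp was lower (7.69%), where 20.2% and 17.1% of all genes tested were called. Apaf1 was 1690 to 2615 units in the 3 claudin-low tumors (median, 1870) against 353 to 1564 (median, 563), a log2 fold change of 1.67 ± 0.32 (SE; adjusted p = 0.000117). Tnfrsf10b, the receptor of the death ligand TRAIL, was 1301 to 1415 units (median, 1334) in the claudin-low tumors against 293 to 905 (median, 436), with separate ranges. Its log2 fold change was 1.52 ± 0.25 (SE; adjusted p = 2.44e-05). Eda2r, a receptor of the same family, was 80.2 to 180 units (median, 114) against 4.29 to 368 (median, 26.1). Its ranges overlapped, and the log2 fold change of 2.01 ± 0.74 (SE; adjusted p = 0.0333) no longer passed without any 1 of the 3 tumors. Bax was 1864 ± 74.4 units (SD, n = 3) against 1161 ± 171 (SD, n = 25), with separate ranges, and its exon overlap with Gm45808 applies here too. Bbc3 was 503 ± 47.4 (SD, n = 3) against 310 ± 76.1 (SD, n = 25), with overlapping ranges, and no longer passed without PLK2null-743 (adjusted p = 0.0659). Pmaip1 was 181 ± 25.7 (SD, n = 3) against 366 ± 256 (SD, n = 25) and was not called.

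**Figure D3:**
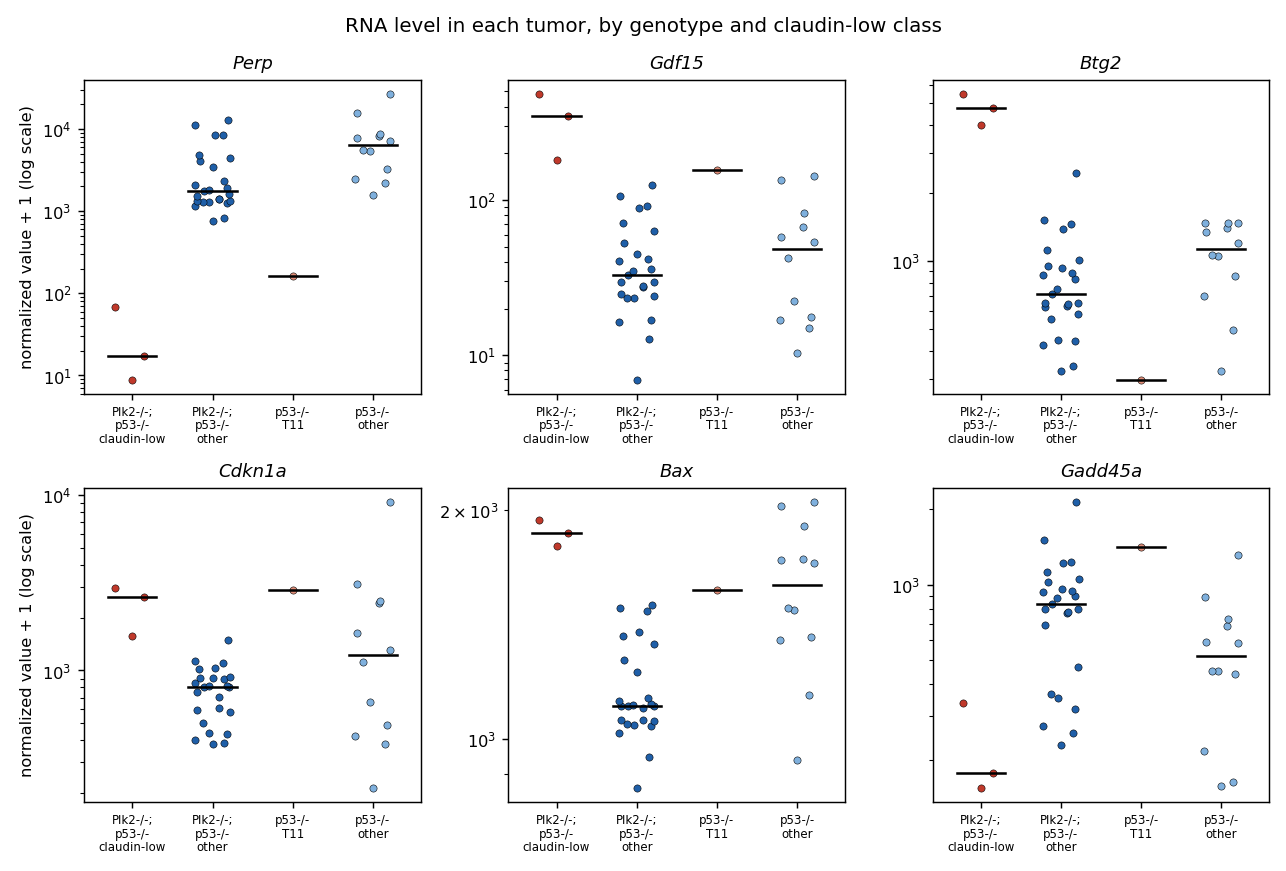
Normalized value + 1 on a log scale for 6 genes in each of 41 tumors, by genotype and claudin-low class, with a bar at the median of each group. The 3 claudin-low double-null tumors lie above the other 25 in Gdf15, Btg2, Cdkn1a and Bax and below them in Perp, while p53null-T11 (298 units) is the lowest p53-/- tumor for Btg2 and the highest (1410 units) for Gadd45a.

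Gdf15, Ak1 and Ddb2 completed the called genes. Gdf15 was 480 units in PLK2null-732, 346 in PLK2null-733 and 180 in PLK2null-743, against 5.99 to 123 (median, 32.1). The log2 fold change was 3.15 ± 0.58 (SE; adjusted p = 7.86e-05), and 1 of the 9 stress response genes was called, namely Gdf15 itself. Ak1 was 52.7 to 117 units (median, 77.3) against 137 to 1130 (median, 314), a log2 fold change of -2.04 ± 0.43 (SE; adjusted p = 0.000385). Ddb2 was 216 to 314 units (median, 288) against 354 to 848 (median, 538), a log2 fold change of -1.08 ± 0.21 (SE; adjusted p = 0.000193). Acp2, which shares exon bases with Ddb2, was higher by 0.57 ± 0.16 (SE; adjusted p = 0.00602), the opposite direction. Of the pathway lists outside the set, the regulators had 0 of 14 higher and 2 lower, and the other targets had 1 of 15 higher, Igfbp3, and 4 lower. Over all genes tested, 20.2% were higher and 17.1% were lower.

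A total of 20 members were called in at least 1 of these comparisons and 4 in both, namely Bax, Apaf1, Ddb2 and Ak1. The comparisons share the 28 double-null tumors. Apaf1 was higher in both and Ak1 lower in both. Bax was lower between genotypes and higher in claudin-low tumors, and Ddb2 was higher between genotypes and lower in claudin-low tumors. Of the 22 members not called between claudin-low and other tumors, Steap3 was 231 ± 62.8 units (SD, n = 3) against 1421 ± 1301 (SD, n = 25), and Trp53inp1 was 1682 ± 244 (SD, n = 3) against 1012 ± 520 (SD, n = 25).

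Whether the claudin-low difference was alike in the p53-/- tumors was addressed by an interaction term, in which p53null-T11 is the only p53-/- claudin-low tumor and is assumed to vary like the other groups. The term therefore compares 1 tumor and does not show that the genotypes differ. Epcam and Cdh1 were at 81.4 and 61.9 units in p53null-T11, each the lowest of the 13, while Krt8 and Krt18 were at 11057 and 22508. Its endothelial list summed to 6876 units, within the 2041 to 16463 of the other p53-/- tumors. Of the 34 members 1 was called higher and 1 lower (2.94% each), beside 6.54% and 3.43% of all 17208 genes tested. Median-of-ratios scaling called 1 higher and 2 lower. The gene called higher was Btg2, which was 298 units in p53null-T11 against 326 to 1480 in the other 12 p53-/- tumors. The gene called lower was Gadd45a, which was 1410 units in p53null-T11 against 155 to 1319. The call of Gadd45a was lost without PLK2null-732 (adjusted p = 0.0615), without PLK2null-733 (adjusted p = 0.0719) and with quantile normalization (adjusted p = 0.0521). For both genes p53null-T11 stood on the opposite side of its genotype from the claudin-low double-null tumors. Of the other members called in the claudin-low fit, Bbc3 (-0.37) and Ak1 (0.56) also had the opposite sign in p53null-T11, as log2 differences from the other 12. Gdf15, Eda2r, Apaf1, Cdkn1a, Tnfrsf10b, Perp and Ddb2 had the same sign, from -5.15 for Perp to 3.18 for Eda2r. Bax was at 0.03. p53null-T11 lay beyond every other p53-/- tumor for 17 of the 34 genes, as the highest for 9 and the lowest for 8. The share over all genes was not computed, so this count cannot be read as particular to the set. Pmaip1 was 1611 units there against 21.8 to 497 in the other 12, and its interaction did not pass, at -4.19 ± 1.63 (SE; adjusted p = 0.0968).

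**Figure D4:**
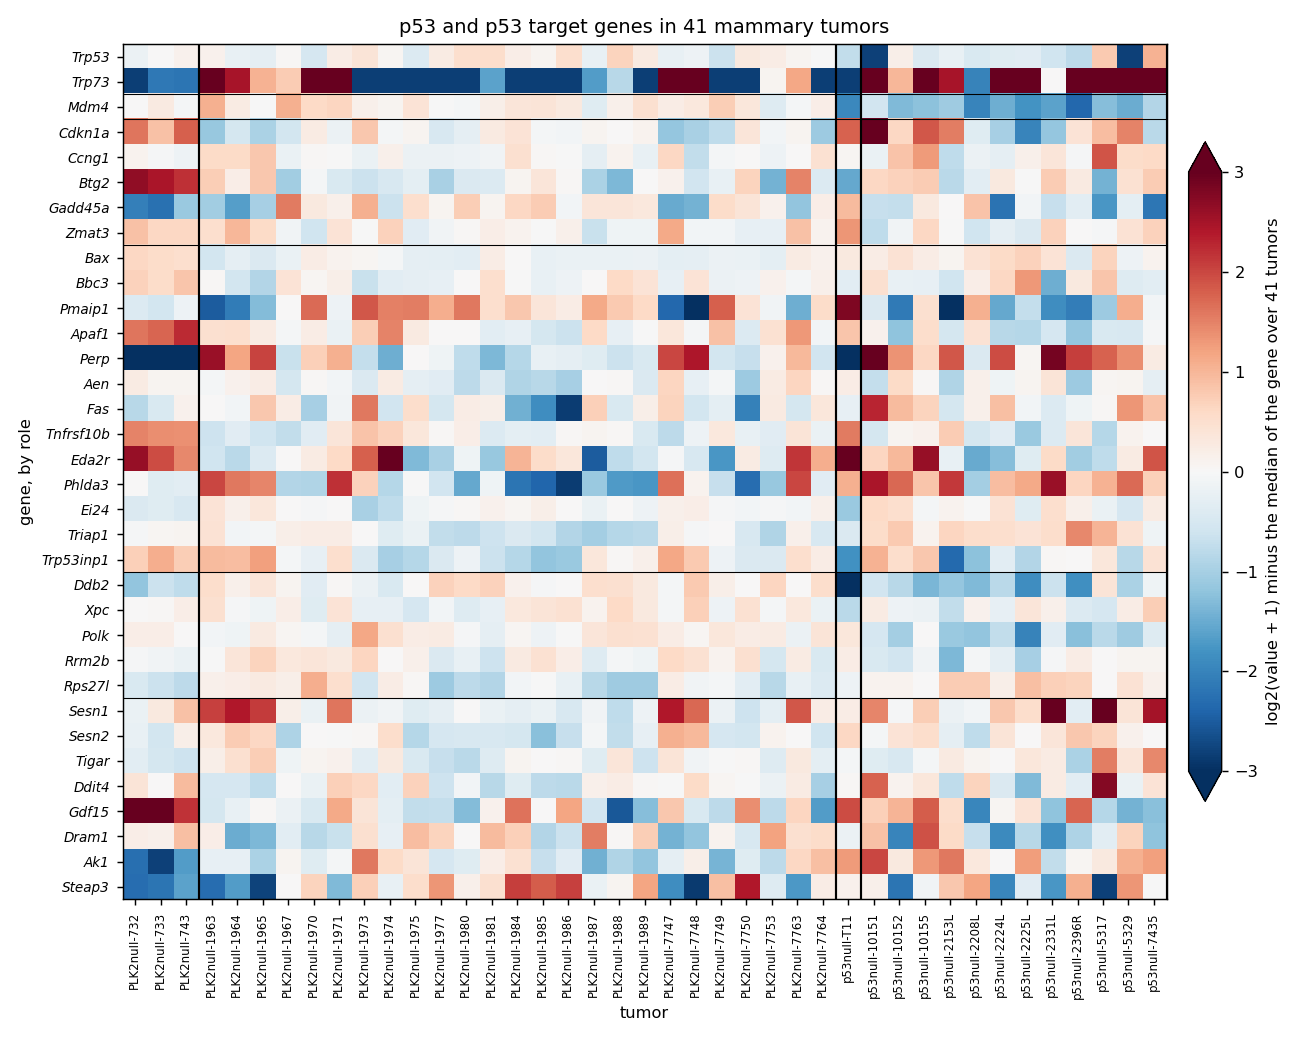
Log2(value + 1) of each of the 34 genes minus its median over the 41 tumors, with genes ordered by role and tumors by group (claudin-low and other Plk2-/-; p53-/- tumors, p53null-T11, other p53-/- tumors). Mdm4 is above its median in most double-null tumors and below in the p53-/- tumors, the 3 claudin-low double-null tumors are alike in Perp, Btg2 and Gdf15, and no tumor is high or low for all genes.

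Tumor by tumor, the members did not rise or fall as a block. Over the 561 pairs of members, the median Pearson correlation on the log2 scale was 0.028 in the 28 double-null tumors and 0.032 in the 13 p53-/- tumors, beside 0.031 and 0.032 over pairs of all genes tested. These are descriptions over tumors that may be related. The most alike pair in the double-null tumors was Phlda3 and Sesn1 (r = 0.83, rho = 0.71), and the most opposed was Trp53inp1 and Steap3 (r = -0.86, rho = -0.81). In the p53-/- tumors the most alike pair was Perp and Ei24 (r = 0.79, rho = 0.67). The level of Trp53 RNA had a median correlation of -0.12 with the other 33 genes in the double-null tumors and -0.05 in the p53-/- tumors. For Trp73 these medians were 0.15 and 0.21, and for Mdm4 -0.02 and 0.26.

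The spread of single members differed widely. The SD of log2(value + 1) was lowest for Bax, at 0.29 in the double-null and 0.32 in the p53-/- tumors, and highest for Trp73, at 2.87 and 3.21. The median SD of the members was 0.61 in the double-null and 0.79 in the p53-/- tumors, beside 0.63 and 0.71 for all genes tested. For Trp53 itself the SD was 0.32 in the double-null tumors and 1.13 in the p53-/- tumors. Among the p53-/- tumors, p53null-10151 was the highest for 7 members, including Cdkn1a, Perp, Fas and Mdm4, and it was the lowest for Trp53. p53null-5317 was the highest for 6, including Trp73, Sesn1 and Ddit4, of which Ddit4 reached 23235 units. For neither tumor was the share over all genes computed, so these counts cannot be read as particular to the set. Without p53null-10151 the genotype comparison called 4 members higher and 6 lower, having lost Trp53 and Rrm2b, and without p53null-5317 it called 6 and 6.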

How the data were processed

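RNA of 41 mammary tumors was sequenced by the authors in paired reads from TruSeq mRNA libraries, aligned to mm10 with STAR 2.7.6a and quantified with Salmon 1.4.0, versions as in the submitters' processing notes, which also list SAMtools and Picard 2.22.4. The gene annotation is not given in the sources used here. The deposited values are a linear signal, gene-level estimated counts divided by the authors by each tumor's upper quartile, and log2(value + 1) was applied here. Per tumor, 77.9 to 80.5% of the values above 0 were whole multiples of the most frequent value (1 read) within 0.1 of a read, too few to recover reads, so no count model was used.

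Genes with a mean of at least 10 were tested two-sidedly with limma 3.58.1 in R 4.3.3 without trend, with Benjamini-Hochberg adjustment over all genes and a threshold of 0.05. Tables and figures used Python 3.11.15, numpy 2.4.6, pandas 2.3.3 and matplotlib 3.10.9. The fits were tested on simulated data with planted changes. The simulated tumors were independent and had no library series, so that test does not cover related tumors or the series. Genotype came from the sample labels. The study's text names PLK2null-743 and p53null-T11 as claudin-low, and PLK2null-732 and PLK2null-733 entered that class as given when the gene set was chosen. Positions, lengths and overlaps came from GENCODE vM21. The members and gene lists were chosen with earlier results of these data known. Full statistics were given for Trp53 and for the 10 called members with the largest change in each fit, and group values for the others. Alternatives were another pseudocount (10), other filters (none, or a mean of at least 50), a limma trend, 2 other scalings and fewer tumors. The fits without p53null-5317, p53null-10151 or p53null-5329 and those leaving out each tumor in turn were chosen after seeing the data.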

Additional observations from a re-analysis of the deposited data

Results flagged for a closer look

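Btg2 and Gadd45a passed the threshold in the interaction fit of limma, in which p53null-T11 is the only p53-/- claudin-low tumor and its spread is taken from the other groups. For Btg2 the effect was 2.64 on the log2 scale in the Plk2-/-; p53-/- tumors and -1.71 in the p53-/- tumors, a difference of 4.36 ± 0.81 (SE; adjusted p = 0.000424). For Gadd45a the effects were -1.79 and 1.60, a difference of -3.39 ± 1.03 (SE; adjusted p = 0.0295), and that call was lost without PLK2null-732 (adjusted p = 0.0615), without PLK2null-733 (adjusted p = 0.0719) and with quantile normalization (adjusted p = 0.0521). The p53-/- effect rests on p53null-T11 alone against 12 tumors, so these values compare 1 tumor and do not show that the genotypes differ. p53null-T11 was the highest or lowest p53-/- tumor for 17 of the 34 members, a count for which no share over all genes was computed. The median interaction on the log2 scale was 4.36 for the endothelial list, 7.70 for red blood cells, 5.49 for T cells and 5.87 for B cells. It was -5.14 for the epithelial list and -3.57 for fibroblasts. The part of cell content in the Btg2 and Gadd45a differences was not tested.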

How the results depend on the processing

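All called members kept their direction under every alternative run, but not all kept their call. With the 7 named primary double-null tumors in place of 28, 3 members were higher and 2 lower between genotypes, where 2942 of 17050 genes were called in place of 6802 of 17208, and fewer samples were tested; Trp53, Trp73, Bax, Apaf1, Phlda3, Rrm2b and Ak1 lost their calls. Median-of-ratios scaling gave 10 lower members there, with Ccng1, Fas, Sesn2 and Tigar added, and lost Rrm2b and Trp53 (adjusted p = 0.0702). Quantile normalization added Fas and Sesn2 and lost Rrm2b. Fas was also added with a pseudocount of 10 and with a mean of at least 50. For the interaction, 2 members were lower with a mean of at least 50, with a limma trend or with median-of-ratios scaling, Ak1 being the addition, and leaving out 1 claudin-low tumor gave 0 to 2. Gadd45a lost its interaction call without PLK2null-732 (adjusted p = 0.0615), without PLK2null-733 (adjusted p = 0.0719) and with quantile normalization (adjusted p = 0.0521). The uncalled interaction of Trp53 (0.08) turned to -0.086 with median-of-ratios scaling and -0.054 with quantile normalization, and the all-gene median of that fit moved from 0.19 to 0.03 and -0.07, with 822 genes higher and 673 lower under quantile normalization in place of 1125 and 590. With p53null-T11 added and genotype as a covariate, the claudin-low fit lost Gadd45a and Bbc3 and gained Zmat3 and Ei24. Leaving out each tumor in turn gave 4 to 6 higher and 6 to 8 lower members between genotypes, and 6 to 9 higher and 3 to 5 lower for the claudin-low class. Sesn2 passed between genotypes without p53null-2208L, PLK2null-7748 or PLK2null-7747, and in the claudin-low fit Zmat3 passed without PLK2null-7747, Ei24 without PLK2null-1973 or PLK2null-1974, and Steap3 without PLK2null-7748 or PLK2null-1965. No paired analysis was possible because the groups share no replicate numbers. Depth limits Trp73, which was at or below the floor in most double-null tumors.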
